A study of Mus with 2 samples.

Results

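Distal nephron precursors of the newborn mouse kidney were taken as the barcodes in which the Iroquois genes Irx1 and Irx2 occurred together with Sim2, Lgr5 or Spon1. A barcode tags the RNA of a droplet that usually holds a single cell, and its unique molecular identifiers (UMIs) count the RNA molecules captured there. Barcodes with at least 2000 UMIs and at most 10% of them from mitochondrial genes were kept. Members were selected on the measured UMIs of 9 genes: they had at least 2 UMIs of Irx1 and Irx2 summed, at least 2 of Sim2, Lgr5 and Spon1 summed, at most 1 each of Slc12a1, Slc12a3 and Col3a1, and none of Pecam1. The rule found 129 members among 6220 kept barcodes in replicate 1 (2.07%, 95% exact binomial interval 1.73 to 2.46) and 133 among 5149 in replicate 2 (2.58%, 2.17 to 3.05), which is 262 of 11369 in all. Their mean share was 2.33% ± 0.36 (SD, n = 2), and 3.66% with a minimum of 10000 UMIs per barcode. Intervals here and below cover counting error only.

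Both libraries came from kidneys at postnatal day 0 of mice with the genotype Rbpj c/- ; Foxd1cre/+, and 3' ends of the transcripts were sequenced after 10x Chromium capture. Rbpj is the DNA-binding partner of activated Notch, and Foxd1 is a gene of the stromal progenitors, so the Cre was aimed at the renal interstitium and not at the nephron epithelium to which these precursors belong. The genotype further includes a minus allele of Rbpj, which by its notation does not depend on the Cre. Members are therefore not taken as wild type for Rbpj. The series also names 2 controls (Rbpj c/+ ; Foxd1cre/+), which are not analysed here, and genotypes are therefore not compared. The labels do not say whether the libraries are separate animals. In members Xist, the RNA of the inactive X chromosome, stood at 1142 CPM (UMIs per 1000000 UMIs) in replicate 1 and 0 in replicate 2, and the Y-linked Ddx3y at 0 and 59.3, so the libraries differ in sex. P-values measure only how far the differences between populations varied between these 2 libraries, with the library as a block. In the comparisons with similar populations this spread was pooled over 8 populations.

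Members carried a median of 25919 UMIs in replicate 1 and 18095 in replicate 2, against 11851 and 12158 in all other kept barcodes. Their counts ran from 4312 to 189081 UMIs in replicate 1 and from 3297 to 188654 in replicate 2. The 39 and 25 members with over 50000 UMIs held 66.8% and 56.8% of all member UMIs, so a level summed over members rests mainly on them. The doublet caller Scrublet marked 7 members in each library. In all, 6 kept barcode sequences occurred in both libraries, and 0 of them was a member in both.

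Nephrons arise from progenitors that condense beside each ureteric bud tip, turn into an epithelial renal vesicle and then divide into proximal, intermediate and distal segments in the comma- and S-shaped bodies. Irx1 and Irx2 encode homeobox transcription factors of the intermediate and distal segments, from which the loop of Henle and the distal tubule grow. Notch ligands mark the middle of the S-shaped body, and the mature thick ascending limb is known by the sodium-potassium-chloride cotransporter Slc12a1 and by uromodulin (Umod).

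The 5 genes that admitted a barcode are given first, as a description, since the rule used them. Levels are UMIs of a gene per 1000000 UMIs (CPM) summed over the barcodes of a population in a library, and they are compared within a gene only. Irx1 (RefSeq annotation of GRCm38.p6, chromosome 13, 71958232 to 71963723) stood at 533 and 477 CPM in members of replicates 1 and 2, and Irx2 (chromosome 13, 72624430 to 72634196) at 172 and 167. Both Iroquois genes were found in 116 of 129 and 125 of 133 members, with a median of 18 and 14 UMIs summed.

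Sim2 (chromosome 16, 94085104 to 94127032), which encodes a bHLH-PAS transcription factor, stood at 210.0 and 171 CPM. Lgr5 (chromosome 10, 115450314 to 115587780), a receptor for R-spondins, stood at 67.8 and 60.5 CPM, and Spon1 (chromosome 7, 113765998 to 114043375), a secreted matrix protein, at 193 and 137. Most members had more than a single gene of this trio: 61 and 50 held all 3, and 52 and 55 held 2. Sim2 was the most frequent entry in replicate 1, in 114 members (107 in replicate 2), and Spon1 was found in 103 and 107. Lgr5 was found in 86 and 74. Only 8 and 15 members entered through Sim2 alone, 5 and 10 through Spon1 alone and 3 in each library through Lgr5 alone.

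Few members sat at the edge of the rule on the Iroquois side: 5 and 3 had exactly 2 UMIs of Irx1 and Irx2, and these were deep barcodes with a median of 69375 and 66548 UMIs. Their Nog level was 0 and 4.60 CPM, against 0.881 and 8.69 CPM in the 12 and 8 barcodes left outside with a sum of 1. On the trio side 14 and 15 members had exactly 2 UMIs. They held 0 and 1.65 CPM of Nog and 137 and 143 CPM of Mecom, against 6.004 and 3.17 CPM of Nog and 42.0 and 15.8 CPM of Mecom in the 29 and 25 barcodes outside with a sum of 1. At the Irx and trio edges Nog was thus no higher inside the rule than just outside it. At the Slc12a1 limit, the 24 and 19 members with 1 UMI had 32.4 and 28.1 CPM of Nog and 59.8 and 98.9 CPM of Umod. The 7 and 8 barcodes outside with 2 Slc12a1 UMIs had 58.7 and 24.4 CPM of Nog and 159.6 and 129 CPM of Umod.

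**Figure D1:**
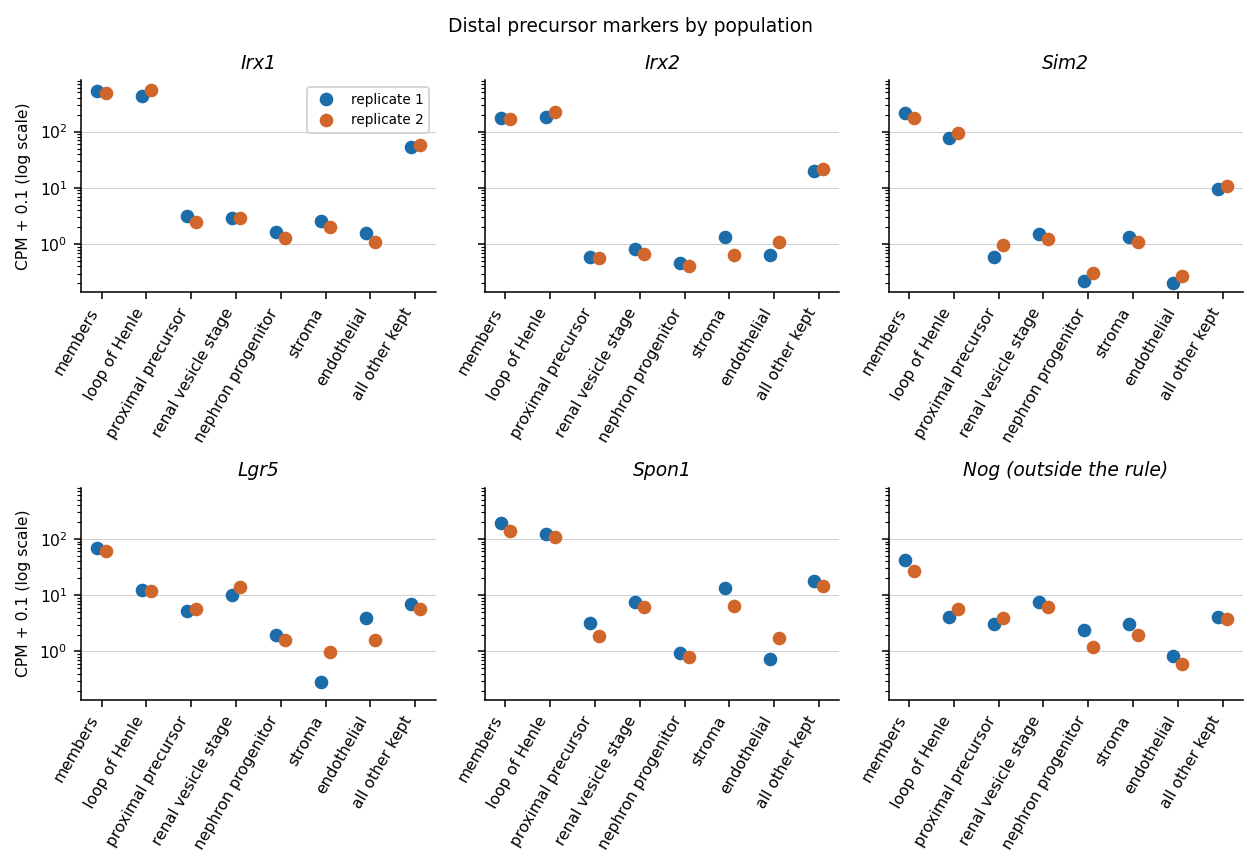
Levels of Irx1, Irx2, Sim2, Lgr5, Spon1 and Nog in members, 6 of the gated populations and all other kept barcodes, in CPM plus 0.1 on a log axis, with a point for each library. Irx1, Irx2, Sim2 and Spon1 are shared with the loop of Henle gate. Of the 6 genes Nog alone was not used to admit members, and it is highest in members in both libraries.

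Nog was the marker the rule did not use. Nog (chromosome 11, 89300638 to 89302559) encodes Noggin, a secreted antagonist of bone morphogenetic proteins. It stood at 42.4 and 27.3 CPM in members (mean 34.8 ± 10.6, SD, n = 2) and at 3.996 and 3.69 CPM in all other kept barcodes. The lower library of the members was several times above the higher of the others, and the groups did not overlap. The difference was 3.20 ± 0.16 on the log2 scale (edgeR's quasi-likelihood test, adjusted p = 2.7e-13), in a comparison where 6473 of 16466 genes passed the test (39.3%), 2744 higher (16.7%) and 3729 lower (22.6%) in members. With so large a background, a single passing gene is read by its size. The rule selects barcodes by their own counts, so genes that accompany its 9 genes from cell to cell can pass for that reason alone, and the calls describe the population.

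Among the other populations the order of Nog levels was the renal vesicle-stage gate (7.39 and 6.15 CPM), the loop of Henle gate (3.94 and 5.50), the proximal precursor gate (2.97 and 3.87), the stroma (2.93 and 1.88), the nephron progenitors (2.35 and 1.11) and the endothelium (0.738 and 0.499). The loop, proximal and stromal values lay close to each other, with libraries that overlapped or nearly did. In the distal tubule gate Nog had 0 UMIs, where 3 counts would be 5.49 and 10.4 CPM. Members exceeded the loop gate by 2.93 ± 0.30 (edgeR, adjusted p = 5.8e-06), the renal vesicle-stage gate by 2.36 ± 0.34 (edgeR, adjusted p = 0.00022) and the proximal precursors by 3.30 ± 0.29 on the log2 scale (edgeR, adjusted p = 1.1e-06).

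A Nog UMI was present in 73 members of replicate 1 (56.6%, exact interval 47.6 to 65.3) and 58 of replicate 2 (43.6%, 35.0 to 52.5). The share moved with depth: thinned to 5000 UMIs per barcode, with 1 member left out in each library, it was 18.0% and 15.9%. The loop gate had 12.8% and 10.3% (4.29% and 1.96% thinned), and the stroma, which should lack the gene and had a median of 9928 and 9588.5 UMIs, had 2.59% and 1.71% (1.51% and 0.97% thinned). At equal depth Nog was thus seen in a larger share of members than of loop or stromal barcodes in both libraries.

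Transcription factors of the distal nephron were mostly higher in members than in all other kept barcodes. Of 14 tested, 9 were higher and 3 lower, with a median log2 difference of 0.69 against -0.04 over all genes. Of all genes 16.7% were higher and 22.6% lower, so the lower count is near the background. Sim1, the paralog of Sim2 (chromosome 10, 50894698 to 50989156), stood at 102 and 95.4 CPM in members and 20.5 and 20.4 in the others, a difference of 2.30 ± 0.08 on the log2 scale (edgeR, adjusted p = 8.6e-16). Pou3f3, a POU factor needed for the loop of Henle, stood at 209 and 234 against 65.7 and 64.4 CPM (1.79 ± 0.07). For both of these genes both member libraries lay above both libraries of the others.

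Sox9 (1.13 ± 0.07), Tfap2b (1.07 ± 0.07), Mecom (0.85 ± 0.07) and Emx2 (0.85 ± 0.07) were higher by smaller log2 differences. The 3 lower factors were Gata3, which marks the ureteric epithelium and the connecting part of the tubule, Emx1 and Ppargc1a, a coactivator of mitochondrial genes. Gata3 stood at 14.3 and 13.1 CPM in members and 51.2 and 42.1 in the others (-1.74 ± 0.11). Uncx, a homeobox gene that was no list member and was picked after its values were seen, stood at 622 and 606 against 188 and 193 CPM (1.71 ± 0.07).

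Genes of the early nephron were also higher in most cases. Of 16 tested against all other kept barcodes 10 were higher and 3 lower, with a median of 1.02 against -0.04 over all genes. The lower count is no more than the background, since 16.7% of all genes were higher and 22.6% lower. Hes5 (chromosome 4, 154960626 to 154962372), a bHLH repressor and Notch target, stood at 83.5 and 49.3 CPM in members and 8.27 and 9.64 CPM in the others. Replicate 1 was the higher library, and neither member library overlapped the others. The log2 difference of Hes5 was 2.91 ± 0.16 (edgeR, adjusted p = 1.7e-12).

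The Notch ligands Dll1 and Jag1 were higher. Dll1 (chromosome 17, 15367354 to 15376932) stood at 81.8 and 57.8 against 22.1 and 22.0 CPM (1.69 ± 0.11), and Jag1 at 151 and 141 against 51.8 and 46.3 CPM (1.60 ± 0.07). Lhx1, a LIM-homeobox factor of the renal vesicle, stood at 482 and 501 against 194 and 204 CPM (1.33 ± 0.07). Cyclin D1 (Ccnd1) stood at 1532 and 1526 CPM against 358 and 342 (2.15 ± 0.07), and it had a UMI in 99.2% of members of either library (95.3% and 92.4% at 5000 UMIs, against 36.9% and 41.3% of the stroma).

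The fibroblast growth factor Fgf8, which nascent nephrons need, stood at 81.4 and 84.7 against 20.5 and 23.4 CPM (1.95 ± 0.08). Dkk1, a secreted Wnt inhibitor, stood at 86.5 and 68.5 against 37.0 and 35.4 CPM (1.12 ± 0.09), but the others included stroma at 179 and 175 CPM, and with a mitochondrial limit of 5% the difference was -0.10. Wnt4, the Wnt of the forming vesicle, was lower, at 109.8 and 78.7 against 199 and 171 CPM (-0.96 ± 0.08), as were Mycn and Npy.

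Of the further Notch pathway genes, 7 of 17 were higher and 4 lower against all other kept barcodes (median 0.24), and the lower count is near the 22.6% of all genes that were lower. The higher ones were the receptors Notch1 and Notch3, the targets Hes1, Hey1, Hey2 and Nrarp, and the coactivator Maml2. Nrarp, a feedback inhibitor, stood at 53.3 and 55.9 against 22.3 and 20.7 CPM (1.37 ± 0.09) and Hes1 at 336 and 272 against 150.1 and 140.02 (1.09 ± 0.07). The 4 lower were Dll4, Jag2, Notch4 and Mfng, and Dll4 and Notch4 are known from endothelium. Rbpj itself stood at 43.9 and 47.2 CPM in members and 46.7 and 47.3 in the others, a difference of -0.02 ± 0.08 (edgeR, adjusted p = 0.86) with libraries that overlapped. A 3' tag can lie outside the deleted part, and the members are not the cells at which the Cre was aimed, so these values are no check of the deletion.

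Of 21 Wnt and R-spondin genes tested against all other kept barcodes, 5 were higher in members and 11 lower (median -0.60). Among all genes 16.7% were higher and 22.6% lower, so the higher count is not far from the background. Lgr4, like Lgr5 an R-spondin receptor, stood at 156 and 162 against 99.8 and 100.1 CPM (0.69 ± 0.07). Rnf43, a ubiquitin ligase that removes Frizzled receptors, stood at 14.99 and 12.7 against 4.89 and 4.66 CPM (1.56 ± 0.19), and its partner Znrf3 was higher too.

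Lef1, a nuclear effector, stood at 34.5 and 40.7 against 17.9 and 19.9 CPM (1.01 ± 0.11), and Sfrp2, a secreted Frizzled-related protein, at 296 and 301 against 52.3 and 55.4 (2.49 ± 0.07). Axin2, a general Wnt target, was lower, at 8.54 and 8.97 against 16.4 and 14.4 CPM (-0.80 ± 0.16), and so were the targets Nkd1, Notum, Sp5 and Apcdd1, the R-spondins Rspo1 and Rspo3, the Frizzled receptor Fzd7, the secreted antagonists Sfrp1 and Sostdc1, and Tcf7l1. The Axin2 call was lost with DESeq2 (adjusted p = 0.06), and that of Lef1 with a mitochondrial limit of 5% (edgeR, adjusted p = 0.32).

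BMP genes were mixed: 4 of 19 were higher and 8 lower (median -0.23), where 16.7% and 22.6% of all genes were, so the higher count is near the background. Bmp4 stood at 81.8 and 96.4 against 66.1 and 59.8 CPM (0.52 ± 0.08), and the target Id1 was lower, at 145 and 155 against 206 and 183 CPM (-0.35 ± 0.07). The Bmp4 call was lost without barcodes over 50000 UMIs (0.20). Of 16 FGF and ERK genes 5 were higher and 5 lower (median -0.0021). The higher ones included the ETS targets Etv5 (0.95 ± 0.09) and Etv4 (0.80 ± 0.09) and the receptor Fgfr1 (0.70 ± 0.07).

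The genes with the largest positive differences from all other kept barcodes included cell surface receptors. Epha4 (chromosome 1, 77367182 to 77515107), a receptor tyrosine kinase for ephrins, stood at 352 and 309.9 CPM in members and 44.4 and 43.0 in the others. The log2 difference was 2.94 ± 0.07 (edgeR, adjusted p = 5.2e-18). Epha4 had a UMI in 96.1% and 96.2% of members (74.2% and 70.5% at 5000 UMIs), against 12.7% and 14.1% of the stroma (6.80% and 9.94%). Its paralog Epha7 stood at 132 and 136 against 29.6 and 28.8 CPM (2.22 ± 0.07).

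Tspan8, a tetraspanin, stood at 259 and 241 against 48.4 and 41.8 CPM (2.50 ± 0.07). Papss2, which makes the sulfate donor for sulfation, stood at 120.1 and 112 against 17.1 and 20.4 CPM (2.66 ± 0.09), and the heparan sulfate sulfotransferase Hs3st3b1 at 145 and 128 against 38.7 and 34.8 (1.92 ± 0.07). The laminin chain Lama1 (2.15 ± 0.07), the growth factor Pdgfa (2.04 ± 0.07), the glycogen phosphorylase Pygl (2.06 ± 0.08), the adaptor Skap1 (2.23 ± 0.11) and urokinase Plau (1.95 ± 0.09) completed the 15 genes with the largest rise by the naming rule, beside Hes5, Sfrp2, Sim1, Ccnd1 and Fgf8. Pdgfa stood at 462 and 466 CPM in members against 112 and 117 in the others. The same direction in both libraries was part of that rule.

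The genes with the largest negative differences belonged to blood, endothelium and stroma. Hba-a1, Hbb-bs and Hbb-bt, globin genes whose near-identical copies make single values uncertain, stood at 38.5 and 17.1, 149 and 57.0 and 11.3 and 4.59 CPM in members, against 3498 and 4064, 10712 and 9954 and 2185 and 1518 CPM in the others. Fabp4, a lipid carrier of endothelium, stood at 4.36 and 5.01 against 884 and 654 CPM (-7.35 ± 0.13). Others of the 10 largest negative differences had at most 8 UMIs in a member library: the stromal gene Dcn (3 and 1 UMIs), the neutrophil genes S100a8 (4 and 3) and S100a9 (8 and 2), Gpihbp1 of capillaries (4 and 2) and Lyz2 of myeloid cells (3 and 2), all of which passed the test.

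Whole lists for other cell types were low as well. All 10 stromal, 9 endothelial, 8 immune and 7 erythroid genes tested were lower in members. The rule limited Col3a1 and Pecam1, so most barcodes of stroma and endothelium had been kept out of the members beforehand. For these 2 cell types the lower lists describe the selection and are no test of it. Summed over its list, stroma stood at 39.0 and 30.9 CPM in members against 5676 and 6231 in the stroma gate, and endothelium at 39.4 and 36.3 against 5842 and 5274 in the endothelial gate. The immune sum was 11.9 and 8.14 CPM, and the erythroid sum 232 and 85.6, with Slc4a1 at 0 in both libraries. Nephron progenitor genes were also low: 11 of 12 were lower and Sall1 alone was higher (126 and 124 against 82.8 and 85.1 CPM). Six2, the factor that holds progenitors undifferentiated, stood at 14.1 and 3.55 against 70.5 and 78.3 CPM (-2.98 ± 0.21).

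**Figure D2:**
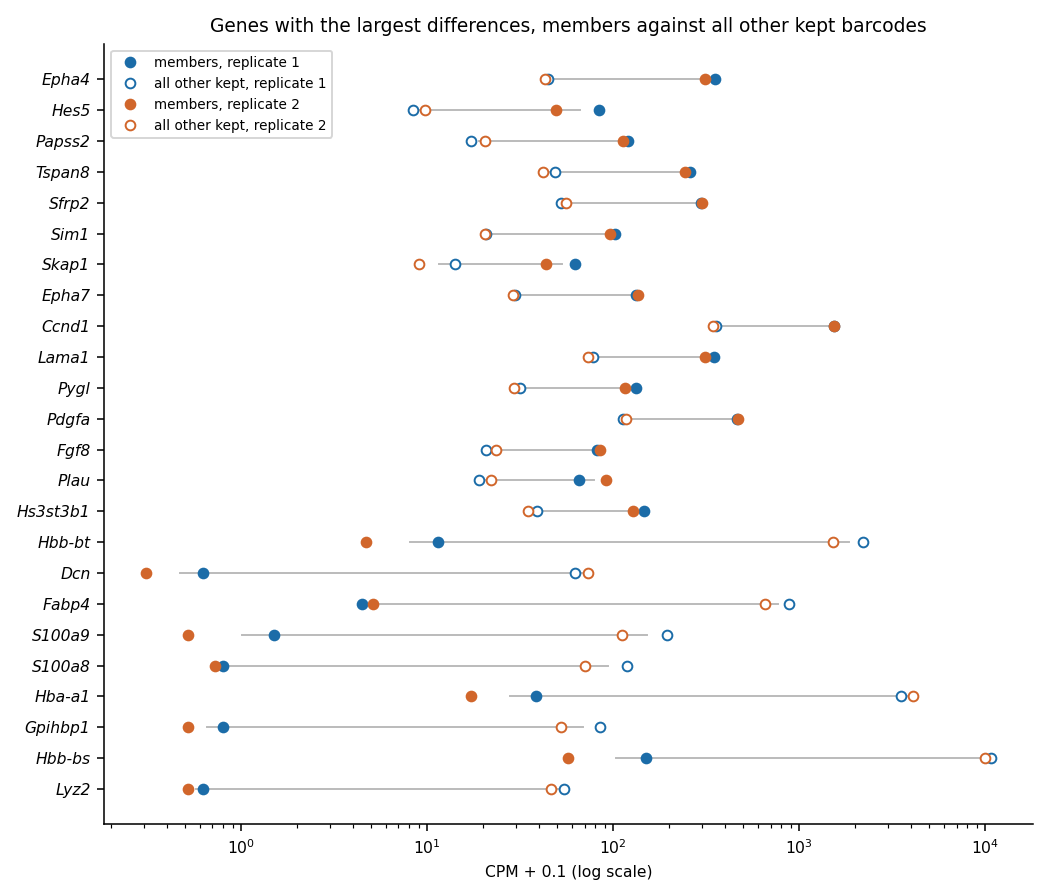
Levels of 24 of the genes named by the rule for members against all other kept barcodes, in CPM plus 0.1 on a log axis, with a point per library and population and a grey line between the population means. Epha4 at 352 and 309.9 CPM has the largest positive difference among them, and Hbb-bt, at 11.3 and 4.59 CPM in members, is the first of the lower ones.

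Members were epithelial, and the rule had kept out barcodes with more than 1 UMI of Slc12a1 or Slc12a3. Low counts of thick ascending limb and distal convoluted tubule genes are therefore set in part by the rule. Of 16 epithelial genes 11 were higher and 2 lower than in all other kept barcodes (median 0.58). The adhesion molecule Epcam stood at 971 and 991 against 291 and 312 CPM (1.73 ± 0.07) and E-cadherin (Cdh1) at 87.7 and 84.3 against 57.5 and 55.6 (0.63 ± 0.07). The 2 lower were the keratins Krt8 and Krt18, each by -0.23, calls lost with DESeq2, and both stood above the others instead when barcodes over 50000 UMIs were left out (0.19 for Krt8 and 0.26 for Krt18). Of 10 mesenchymal and adhesion genes 9 were lower, among them Twist1, Snai2, Zeb1 and Vim, and 1, Ncam1, was higher.

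Thick ascending limb genes were lower in 7 of 12 cases and higher in 3. Those 3 were Umod, the claudin Cldn14 and the inositol transporter Slc5a3. Summed over the list, the level was 192 and 228 CPM in members and 204 and 222 in all other kept barcodes. Umod (chromosome 7, 119462708 to 119479262) stood at 59.4 and 60.9 against 14.99 and 22.3 CPM (1.74 ± 0.12), whereas the potassium channel Kcnj1 stood at 0.349 and 1.25 against 9.45 and 9.32 CPM (-3.60 ± 0.36). Of 11 distal convoluted tubule genes 8 were lower, and of 12 ureteric genes 9 were lower and 2 higher (Wnt7b and Hoxb7). Of 15 proximal genes 13 were lower and 1 higher (Cdh6), and all 11 podocyte genes were lower. In this comparison 16.7% of all genes were higher and 22.6% lower. The higher counts of ureteric and proximal genes are thus no more than the background. The proximal count depended on the mitochondrial limit: at 5%, with 61 and 53 members left, 3 of 15 were higher and 3 lower. At that limit the calls of Kcnj1 (-2.12) and Cdh6 (0.37) were lost.

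Cell cycle genes were higher as a group. Of 18 tested 16 were higher in members than in all other kept barcodes, with a median of 0.63 against -0.04 over all genes. Topoisomerase Top2a stood at 433 and 494 against 278 and 273 CPM (0.77 ± 0.07), Mki67 at 271 and 322 against 214 and 215 (0.48 ± 0.07), Ube2c at 378 and 421 against 218 and 196 (0.97 ± 0.07) and cyclin B1 (Ccnb1) at 83.8 and 94.7 against 54.2 and 49.8 (0.80 ± 0.08). Thinned to 5000 UMIs, 46.1% and 45.5% of members had a Top2a UMI, against 25.4% and 25.3% of all other kept barcodes. Unthinned the shares were 59.7% and 65.4% against 32.9% and 32.3%. Deep members had more: those over 50000 UMIs stood at 472 and 565 CPM of Top2a and the remaining members at 355 and 400.2. Without the deep barcodes 13 of 18 genes were still higher, and Mki67 was not among the calls (0.13, edgeR, adjusted p = 0.14).

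**Figure D3:**
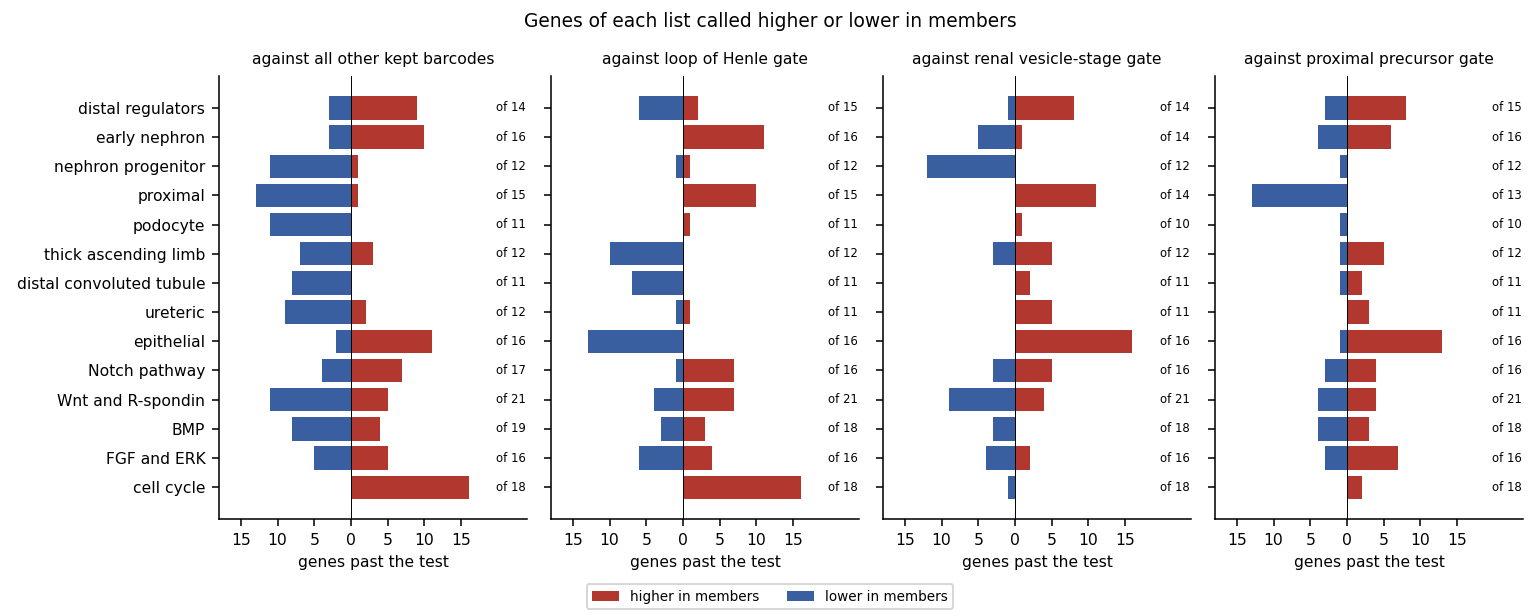
Number of genes in each of 14 lists that were higher (right) or lower (left) in members by edgeR's test, for the comparisons with all other kept barcodes and with the loop of Henle, renal vesicle-stage and proximal precursor gates. Cell cycle genes are higher against all other kept barcodes and the loop gate (16 of 18 in each) but not against the renal vesicle-stage gate (0 higher, 1 lower) and in only 2 of 18 cases against the proximal precursor gate, and epithelial genes are higher against the renal vesicle-stage gate (16 of 16) and lower against the loop gate (13 of 16).

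The next comparisons set members beside the nephron populations most like them, each gated on its own genes and fitted together with 7 residual degrees of freedom. The loop of Henle gate held 164 and 155 barcodes with at least 3 Slc12a1 UMIs and with depth close to that of members (median 24670 and 17870 UMIs). It shared the Iroquois genes, with Irx1 at 429.5 and 550.1 and Irx2 at 179 and 226 CPM. Of 14692 genes 4726 passed the test (32.2%), 2292 higher in members (15.6%) and 2434 lower (16.6%).

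Early nephron genes separated members from the loop of Henle gate: 11 of 16 were higher, with a median of 1.57 against -0.01 over all genes. Hes5 stood at 2.29 and 1.24 CPM in the loop against the 83.5 and 49.3 of members, a difference of 5.21 ± 0.40 (edgeR, adjusted p = 3.9e-07). Dll1 stood at 9.15 and 2.84 CPM in the loop (3.48 ± 0.40) and Dkk1 at 8.14 and 1.42 (3.93 ± 0.32). The 3 are the largest rises by the naming rule, which asked for the same direction in both libraries.

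The Notch ligand Jag1 (1.76 ± 0.20), Lhx1 (1.89 ± 0.27) and the Notch targets Nrarp (2.67 ± 0.15), Hey1 (2.63 ± 0.21) and Hes1 (0.73 ± 0.10) were higher as well, and in all 7 of 16 Notch pathway genes were higher and 1, Maml3, lower. The fucosyltransferase Fut9 (3.47 ± 0.22), the metalloprotease Adamts16 (3.47 ± 0.18), Epha7 (3.43 ± 0.20), Sfrp2 (3.32 ± 0.23) and the scaffold Pdzk1 (2.99 ± 0.21) were the others of the 8 largest rises. Cell cycle genes were higher in 16 of 18 cases (median 1.05), Top2a by 1.31 ± 0.19, and in 8 of 18 with a mitochondrial limit of 5%, where early nephron genes were higher in 7 of 15.

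Loop genes went the other way: 10 of 12 thick ascending limb genes were lower (median -4.28). Kcnj1 stood at 0.349 and 1.25 CPM in members (2 and 6 UMIs) and 99.0 and 117 in the loop (-7.07 ± 0.32). Cldn16, a paracellular magnesium channel, had 2 UMIs in each member library against 79.5 and 54.8 CPM in the loop, and the kallikrein Klk1 had 2 and 0 against 347 and 248 CPM.

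Kng2 (-6.07 ± 0.29), Ppp1r1a (-5.38 ± 0.17), Pappa2 (-4.96 ± 0.18) and Tmem72 (-4.92 ± 0.19) were also among the 8 largest falls. Umod differed less, at 154 and 304 CPM in the loop against 59.4 and 60.9 in members (-1.82 ± 0.16). Cldn10 stood at 510.0 and 746 CPM in the loop (-3.18 ± 0.12) and Wfdc2 at 1586 and 1885 against 509.9 and 476 (-1.79 ± 0.23).

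Of 15 distal transcription factors 6 were lower in members than in the loop of Henle gate and 2 higher, where 16.6% and 15.6% of all genes were, so the higher count is no more than the background. Tfap2b, an AP-2 factor, stood at 181 and 146 CPM in members and 729 and 699 in the loop (-2.09 ± 0.19). At 5000 UMIs it was seen in 32.0% and 37.9% of members but in 89.0% and 88.9% of the loop. Mecom (-1.18 ± 0.33) and Ppargc1a (-2.55 ± 0.12) were lower too, Emx2 (0.60 ± 0.19) and Irx3 (0.77 ± 0.20) were higher, and Pou3f3 did not pass the test (-0.47 ± 0.27, edgeR, adjusted p = 0.2), but was lower at a mitochondrial limit of 5% (-0.72, edgeR, adjusted p = 0.031). The Emx2 call was lost with DESeq2, without the replicate block and at that limit (0.11), and the Irx3 call at that limit (1.02), after thinning (0.36) and with at least 3 UMIs asked of each admitting sum (0.44).

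Proximal genes stood higher in members than in the loop of Henle gate in 10 of 15 cases (median 1.80), among them Osr2 (2.50 ± 0.29) and Hnf4a (2.31 ± 0.18). Their sum over the list was 358 and 280.1 CPM in members and 136 and 87.2 in the loop, and 5 barcodes per library held 56.6% and 66.2% of the member sum. After thinning to 5000 UMIs 4 of the proximal genes passed as higher, and the Hnf4a call was lost (1.05, edgeR, adjusted p = 0.25). Epithelial genes were lower in 13 of 16 cases (median -0.96), though Epcam did not pass (-0.15 ± 0.15, edgeR, adjusted p = 0.49). With a mitochondrial limit of 5% the calls for Umod (-0.22), Dkk1 (1.46), Lhx1 (0.98) and Mki67 (0.36) were lost. DESeq2 did not call Mecom, and Irx3 turned to -0.65 without barcodes over 50000 UMIs.

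Barcodes that met every condition of the rule except the Slc12a1 limit allowed the members to be placed beside loop cells of increasing Slc12a1. The steps were members with 0 Slc12a1 UMIs (105 and 114 barcodes), members with 1 (24 and 19), and barcodes with 2 or more at up to 500 CPM of Slc12a1 (35 and 39), up to 2000 CPM (25 and 28) and above (41 and 33). Because Slc12a1 made the steps, the values are a description with no test, and the steps are not a time course.

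Hes5 and Dll1 were much lower in the first step outside the rule than in the members. Hes5 stood at 85.2 and 52.9 CPM in members without Slc12a1, 79.1 and 31.7 with 1 UMI, 10.1 and 4.74 in the third step, 1.46 and 0.859 in the fourth and 0.495 and 0 in the last. Dll1 stood at 74.8 and 62.4, 99.6 and 35.4, 11.5 and 4.21, 11.7 and 4.29 and 0.495 and 3.21 CPM. Replicate 2 was the lower library of Dll1 and Hes5 in the second step, where it held only 19 barcodes.

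Nog fell off over more steps, at 46.2 and 27.2, 32.4 and 28.1, 19.7 and 14.2, 4.39 and 8.59 and 1.98 and 0.642 CPM, and Lgr5 likewise, at 76.5 and 64.4 in the first and 6.43 and 0 in the last. Lhx1 stood at 495 and 490.1 CPM in the first, 210.5 and 179 in the third and 62.8 and 35.3 in the last. Ccnd1 stood at 1634 and 1502 CPM in the first, 1272 and 1644 in the second and 1573 and 1348 in the third, with libraries that moved in opposite directions from step to step, and was lower in the fourth (536 and 755) and the last (228 and 177).

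Tfap2b and Mecom stepped up at the edge of the rule, Tfap2b from 201 and 151 and 131 and 124 CPM in the 2 member steps to 791 and 659.9 in the third, and Mecom from 346 and 275 and 233 and 369 to 816 and 675. Umod was higher at each later step in both libraries, at 59.3 and 53.1, 59.8 and 98.9, 84.6 and 101, 176 and 299.7 and 361 and 764 CPM. Kcnj1 appeared late, at 9.13 and 8.95 CPM in the third step and 182 and 252 in the last. Irx1 stayed between 394 and 654 CPM over all steps, with no order.

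**Figure D4:**
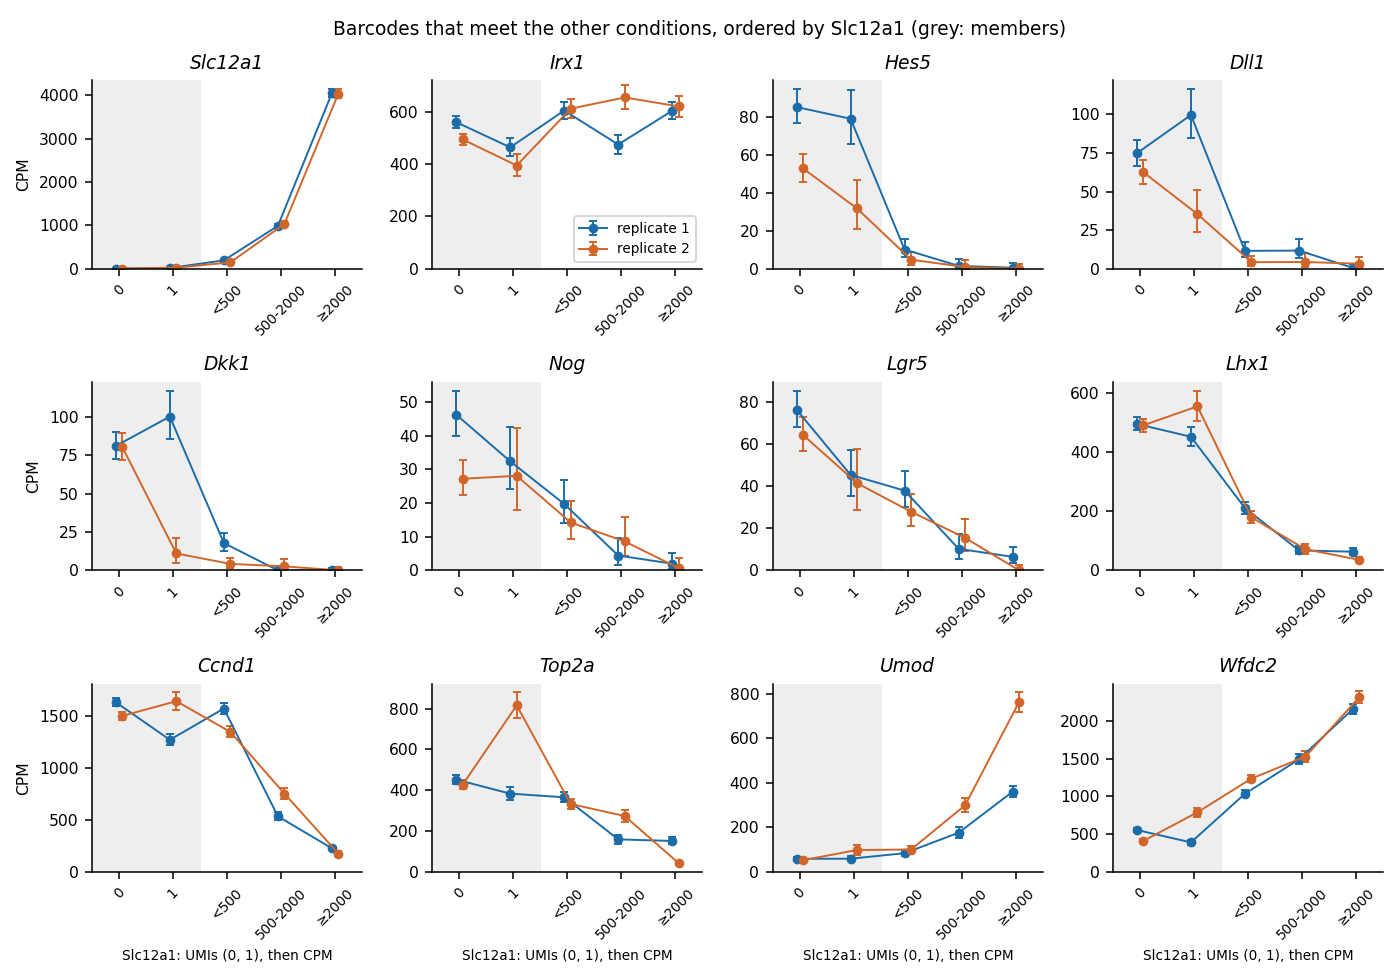
Levels of 12 genes in CPM over 5 steps of Slc12a1, from members with 0 UMIs (step 1) and 1 UMI (step 2, both shaded grey) to barcodes above 2000 CPM of Slc12a1 (step 5), a line per library with 95% Poisson intervals. Hes5 and Dll1 are highest in the shaded steps, Nog is lower in each of steps 3 to 5 than in the step before, and Umod is highest in step 5, at 361 and 764 CPM.

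The renal vesicle-stage gate held 100 and 85 barcodes with Lhx1 and Wnt4 and without Osr2 or Gata3. Of 14687 genes 2715 passed the test (18.5%), 1652 higher in members (11.2%) and 1063 lower (7.24%), and with DESeq2-type size factors the split was 1423 higher and 1399 lower. Epithelial genes were higher in all 16 cases tested against the renal vesicle-stage gate (median 2.94, against 0.04 over all genes). Epcam stood at 109.7 and 192 CPM in the vesicle-stage barcodes (2.75 ± 0.17) and Cdh1 at 7.74 and 17.3 CPM (2.90 ± 0.27). The epithelial count turned to 11 of 16 lower when barcodes with Gata3, which also carried Ret of the ureteric bud, were allowed into the gate.

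Nephron progenitor genes were lower in 12 of 12 cases against the renal vesicle-stage gate. Six2 stood at 14.1 and 3.55 CPM in members and 209 and 60.9 in the vesicle stage, with libraries of the vesicle stage that differed widely but did not overlap the members (-3.89 ± 0.53). Itga8 (-4.77 ± 0.34), an integrin chain, and Eya1 (-3.97 ± 0.49), a coactivator of progenitor factors, were lower as well, with Cped1 (-4.12 ± 0.41), Clmp (-3.83 ± 0.45), Kif26b (-3.82 ± 0.35), Snap91 (-3.78 ± 0.43) and Tgfbi (-3.68 ± 0.65). At a mitochondrial limit of 5% the calls of Six2 (-1.94, edgeR, adjusted p = 0.051) and Tgfbi (-1.12, edgeR, adjusted p = 0.36) were lost. Mycn stood at 17.8 and 17.9 against 113 and 108 CPM (-2.63 ± 0.23) and the neuropeptide Npy at 8.02 and 10.0 against 42.6 and 49.2 CPM (-2.34 ± 0.31).

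On the higher side Tspan8 stood at 3.17 and 6.15 CPM in the vesicle stage against 259 and 241 in members (5.88 ± 0.46). Umod had 2 UMIs in each vesicle-stage library, the ligand Bmp3 1 and 2, and Plau 3 in each, against 341 and 292, 279 and 294, and 375 and 439 UMIs in members, and all passed the test. Pdzk1 (4.38 ± 0.34), the RNA-binding protein Rbm47 (4.12 ± 0.23), Tmem178 (4.07 ± 0.26) and the secreted BMP and Wnt antagonist Sostdc1 (4.07 ± 0.33) were the others. Distal regulators were higher in 8 of 14 cases and lower in 1, Irx3 (4 and 6 with Gata3-positive barcodes in the gate), with Tfap2b at 10.2 and 38.0 CPM in the vesicle stage (2.94 ± 0.29). Mecom was higher by 1.44 ± 0.39, with vesicle-stage libraries at 39.7 and 203 CPM, a call lost with DESeq2 and at the 5% mitochondrial limit (0.70). The rise was not particular to distal genes. Proximal genes were higher in 11 of 14 cases and lower in 0 (median 2.63, against 1.16 for distal regulators). Ureteric genes were higher in 5 of 11 cases, where 11.2% of all genes were higher. In members 5 barcodes per library held 56.6% and 66.2% of the proximal sum.

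Early nephron genes were more often lower than higher in members: of 14 tested against the renal vesicle-stage gate 5 were lower (Mycn, Npy, Bmp2, Lfng and Pax2) and 1 higher (Ccnd1, 0.62 ± 0.18, a call lost with DESeq2), and Hes5 stood at 37.3 and 52.5 CPM in the vesicle stage. Of 18 cell cycle genes only Mcm6 passed the test, in the lower direction, where 7.24% of all genes were lower. Rbpj was lower by -0.40 ± 0.13 (edgeR, adjusted p = 0.043). That call was lost without the replicate block, with a mitochondrial limit of 5%, when thinned and without barcodes over 50000 UMIs. It was also lost with Slc12a1, Slc12a3 and Col3a1 all at 0 and with Gata3-positive barcodes in the gate (-0.062). With Gata3-positive barcodes allowed into the gate, Cdh1 (-1.18), Mecom (-0.27), Sostdc1 (-0.13) and Bmp3 (-0.014) changed sign and the Epcam call was lost (0.19), and Ccnd1 changed sign at the 5% limit (-0.013).

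Against the proximal precursor gate, 470 and 416 barcodes with Osr2 and Cdh6, 3482 of 14689 genes passed the test (23.7%), 1488 higher in members (10.1%) and 1994 lower (13.6%). Distal regulators were higher in 8 of 15 cases and lower in 3 (median 1.93, against 0.00 over all genes). Tfap2b stood at 181 and 146 CPM in members and 2.21 and 1.26 in the proximal precursors (6.49 ± 0.30), Mecom at 314 and 291 against 14.6 and 10.3 (4.56 ± 0.41) and Sim1 at 102 and 95.4 against 14.3 and 9.15 (3.03 ± 0.29).

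Umod (6.38 ± 0.30) and Tspan8 (5.22 ± 0.31) were higher, with the GDNF receptor Gfra1 (3.31 ± 0.27), Limch1 (3.30 ± 0.23), the potassium channel Kcnk1 (3.26 ± 0.16) and the chemokine Cxcl14 (3.23 ± 0.27). Epcam stood at 191 and 170.2 CPM in the proximal precursors (2.41 ± 0.16) and Wfdc2 at 72.5 and 41.1 (3.09 ± 0.25). Epithelial genes were higher in 13 of 16 cases and lower in 1, Krt8.

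All 13 proximal genes tested were lower in members (median -3.08). Hnf4a, a nuclear receptor of the proximal tubule, stood at 18.7 and 21.7 CPM in members and 122 and 125 in the proximal precursors (-2.65 ± 0.11), and the phosphate transporter Slc34a1 at 12.6 and 6.89 against 236 and 223 (-4.55 ± 0.23). Histidine decarboxylase Hdc (-6.00 ± 0.21), Spp2 (-5.34 ± 0.34), Sult1d1 (-5.02 ± 0.30), the organic anion transporter Slc22a6 (-4.86 ± 0.25), Gatm (-4.79 ± 0.36) and the factor Maf (-3.97 ± 0.28) were among the other large falls.

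Of 18 cell cycle genes 2 were higher (Mcm2 and Mcm5) and 0 lower (median 0.24). The higher count is near the background, since 10.1% of all genes were higher against this gate. Early nephron genes were higher in 6 and lower in 4 of 16 cases. Wnt4 (-2.40 ± 0.29) and the Notch modifier Lfng (-1.51 ± 0.20) were lower in members, while Fgf8, Dkk1, Ccnd1 and Hes5 were among the higher. Lhx1 did not pass the test (-0.28 ± 0.25, edgeR, adjusted p = 0.49), but was lower without barcodes over 50000 UMIs (-0.72), after thinning (-0.53) and at a mitochondrial limit of 5% (-1.23). At a mitochondrial limit of 5% the calls of Slc22a6 (-1.91) and Gatm (-0.95) were lost, and DESeq2 did not call Wnt4.

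The distal tubule gate, with at least 2 Slc12a3 UMIs, held only 8 and 6 barcodes. Of 14692 genes 3860 passed the test (26.3%), 2051 higher in members (14.0%) and 1809 lower (12.3%), and 871 after thinning to 5000 UMIs. Early nephron genes were higher in 12 of 16 cases and cell cycle genes in 17 of 18, while 9 of 11 distal convoluted tubule genes were lower. The gate also carried genes of acid-secreting cells, such as the ammonia channel Rhcg, with 162 and 86 UMIs (297 and 299 CPM) against 11 and 15 UMIs in the far more numerous members (1.92 and 3.13 CPM). Erythroid genes, summed over 8, stood at 115 and 20168 CPM in this gate and 232 and 85.6 in members, so they were high in replicate 2 only, and 6 of 7 tested were called lower in members. The part of these other cells in the remaining calls was not tested.

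Members were not uniform. Split by a Umod UMI after thinning to 5000 UMIs, 29 and 30 members had Umod and 99 and 102 had none, and the former were not deeper (median 20353 and 17197 UMIs against 27137 and 19722 before thinning). Dll1 had 0 and 1 UMIs in the members with Umod (0 and 6.67 CPM) against 109 and 64.7 CPM in those without, with 95% Poisson intervals that did not overlap in replicates 1 and 2. Hes5 stood at 6.90 and 20 against 76.8 and 66.7 CPM, with intervals that met in replicate 2. These values are descriptions, since the split came from the same cells.

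Other genes were also lower with Umod: Lhx1 stood at 228 and 220 CPM with Umod and 426 and 535 without, Fgf8 at 13.8 and 26.7 and 70.7 and 114, and Sox9 at 41.4 and 33.3 and 115 and 147. Jag1 did not share this order, at 131 and 113 CPM with Umod and 172 and 100 without. Tspan8 was the other way round, at 607 and 560 CPM with Umod and 259 and 265 without, and its intervals did not overlap in either library. Irx1 (738 and 720 against 578 and 486 CPM), Ccnd1 (1710.3 and 1727 against 1400 and 1625 CPM) and Epha4 (386 and 367 against 356 and 339) differed less. Umod itself had a UMI in 51.2% and 42.9% of members (22.7% in each at 5000 UMIs), against 50.6% and 52.9% of the loop of Henle gate (27.0% and 29.4%) and 0.40% and 0.80% of the stroma (0.32% and 0.36%).

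**Figure D5:**
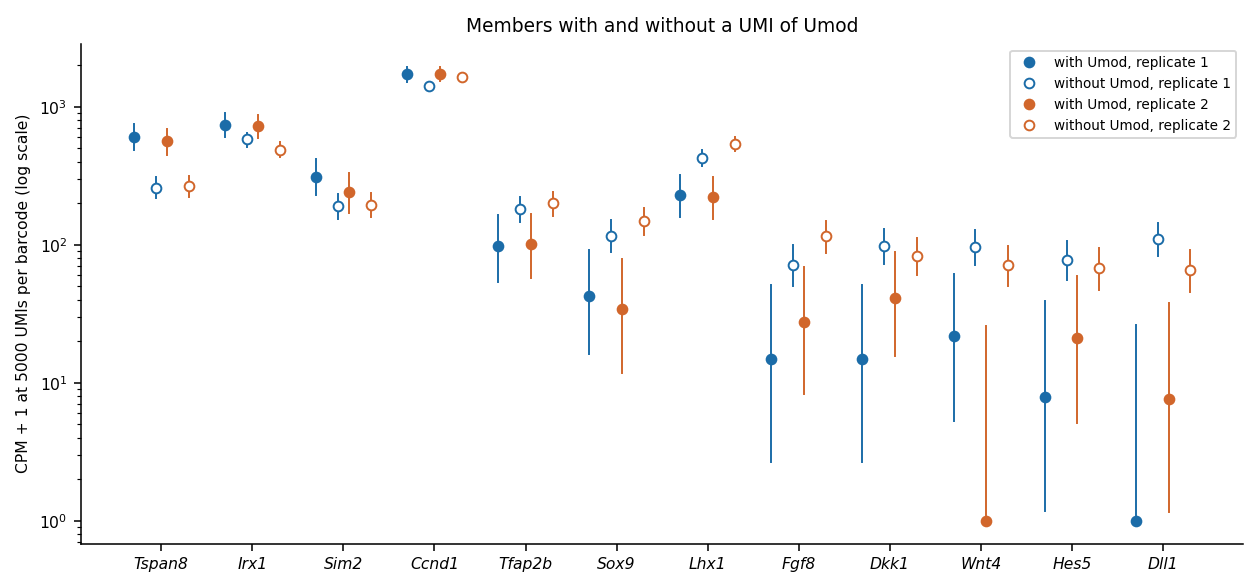
Levels of 12 genes in members with and without a Umod UMI after thinning to 5000 UMIs, in CPM plus 1 on a log axis, a point per library with 95% Poisson intervals. Dll1 is at 0 and 6.67 CPM with Umod and at 109 and 64.7 without, while Tspan8 is higher with Umod in both libraries.

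Deep members differed from the remaining ones in many of the genes compared. Irx3 stood at 39.4 and 46.3 CPM in members over 50000 UMIs and at 6.82 and 6.76 in the others, and Sox9 at 153 and 159.5 against 54.6 and 97.5. Tspan8 was lower in the deep barcodes, at 207 and 144 CPM against 364 and 368, and so were Epcam, at 876 and 783 against 1160.1 and 1264, Cldn10, at 44.9 and 35.3 against 94.97 and 120.2, Umod, at 43.9 and 54.0 against 90.8 and 70.004, and Irx1, at 477 and 377 against 646 and 608. Lhx1 was higher in the deep barcodes, at 543 and 555 CPM against 360.5 and 429.7, and Wnt4, at 122 and 109.5 against 86.0 and 38.1. Nog stood at 40.7 and 19.5 CPM in the deep and 45.6 and 37.7 in the remaining members, and Rbpj at 41.8 and 47.8 against 48.3 and 46.3. Thinned to 5000 UMIs, where each barcode weighs the same, 3277 genes passed the test against all other kept barcodes.

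Between the libraries the members were alike for most genes. At or above a mean level of 50 CPM there were 3249 genes, and 12 of them (0.369%) had a ratio beyond 2-fold, 6 in each direction. Among those higher in replicate 2 were the podocyte gene Wt1, at 40.4 and 161 CPM, Pcp4 (57.3 and 219), Cldn5 (38.5 and 140) and Eif3j1 (32.8 and 76.8). The podocyte list summed to 176 and 528 CPM, and 5 barcodes held 56.0% and 88.0% of it. In replicate 1 Hbb-bs (149 and 57.0 CPM), Eif3j2 (81.2 and 33.0) and Cryab (126 and 56.3) were higher. A single barcode held 59.9% of the Hbb-bs UMIs of replicate 1, and single barcodes held 77.7% and 63.7% of Cryab, a small heat shock protein. Eif3j1 and Eif3j2 are near-identical copies that read counting can split in different ways, so their opposite ratios are uncertain. With 2 libraries of a single group these differences have no test.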

How the data were processed

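The authors deposited raw UMI counts per gene and barcode for 2 kidney libraries, made with Cell Ranger (version 6.0.1 and build mm10 per the submitters' processing notes, 4 per the file headers). The annotation release is not given in the sources used here. The counts were unfiltered, with 2720964 and 2654938 barcodes, of which 6910 and 5917 had at least 2000 UMIs, and 690 and 768 of these were removed for over 10% mitochondrial UMIs. Genes were read by symbol, and 330 of 331 listed genes matched the RefSeq table of GRCm38.p6.

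UMIs were summed per library and population and tested with edgeR 4.0.16 in R 4.3.3 (quasi-likelihood test, TMM, low-count filter, library as block, Benjamini-Hochberg adjustment at 0.05). A first fit held members and all other kept barcodes (4 columns, 1 residual degree of freedom, 16475 genes), and a second held 8 gates (16 columns, 7 residual degrees of freedom, 14701 genes). The members share their libraries with every population they are compared with. Genes of a gate were left out of its comparison. Counts were simulated with the library sizes of these data, a single dispersion for all genes and the same mean levels in every population. Of 100 genes then changed in members by 2 on the log2 scale, 82 were recovered against all other kept barcodes. The number was 81 against the loop and proximal gates, 70 against the renal vesicle-stage gate and 57 against the distal tubule gate. Of 100 genes changed by 1 the numbers were 74, 75, 78, 59 and 27. Real genes differ in their spread and the real populations differ in many genes, so these numbers do not give the recovery in the real comparisons.

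Named genes were the 15 largest positive and 10 largest negative differences from all other kept barcodes, 8 in each direction per similar gate and 5 in each direction between the libraries. They had a mean of at least 50 CPM in the higher group and the same direction in both libraries, and gate, mitochondrial, ribosomal, histone, sex-linked and predicted genes were left out. Listed genes, Rbpj and EYFP came in addition. Members and lists were chosen with earlier results of these data known. The condition of no Gata3 in the renal vesicle-stage gate was added after Gata3 and Ret had been seen there, and the proximal comparison was added after the files were seen. Thinning to 5000 UMIs and leaving out barcodes over 50000 UMIs were also chosen after seeing the data. DESeq2 1.42.0 was an alternative, and Scrublet in scanpy 1.11.5 (Python 3.11.15) ranked doublets, which were kept except where stated. Some genes that the naming rule gives are not reported here.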

Additional observations from a re-analysis of the deposited data

Results flagged for a closer look

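EYFP, a fluorescent protein feature in the deposited matrices that the comparisons above did not use, was found in members at 6.97 CPM in replicate 1 (40 UMIs, 95% exact Poisson interval 4.98 to 9.49) and 5.63 CPM in replicate 2 (27 UMIs, 3.71 to 8.20). Both values were above the level of 3 counts, 0.523 and 0.626 CPM, which drew attention to them, since no control library was analysed here. The stroma gate stood at 379 and 359 CPM of EYFP and all other kept barcodes at 64.2 and 60.8, so members were far below both, by -3.28 ± 0.13 on the log2 scale against all other kept barcodes (edgeR, adjusted p = 6.2e-15). In the proximal precursor gate EYFP lay near the members, at 5.47 and 5.92 CPM. The loop of Henle gate stood at 5.85 and 13.1 CPM, near the members in replicate 1 and above them in replicate 2. The labels do not say which allele the EYFP feature belongs to. Free RNA from stroma was not tested as a source of the member UMIs.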

How the results depend on the processing

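The member share was 2.074% in replicate 1 and 2.583% in replicate 2, the range when either library is left out. It was 3.659% with a minimum of 10000 UMIs, 1.727% with Slc12a1, Slc12a3 and Col3a1 all at 0, and 1.909% without barcodes over 50000 UMIs. Against all other kept barcodes DESeq2 called 3125 genes, a mitochondrial limit of 5% left 4252 and thinning to 5000 UMIs 3277. At the 5% limit, with fewer barcodes, 1409 genes passed against the renal vesicle-stage gate, 1230 against the loop of Henle gate and 1126 against the proximal precursor gate, and after thinning 945, 2114 and 1453, with 871 against the distal tubule gate. Without the replicate block 5534 genes passed against all other kept barcodes, 2536, 4195, 4053 and 2905 against the renal vesicle-stage, loop, distal tubule and proximal gates. With Gata3 allowed in the renal vesicle-stage gate 3360 genes passed, and Bmp3 (-0.014), Sostdc1 (-0.13), Mecom (-0.27) and Cdh1 (-1.18) changed sign. At the 5% limit Dkk1 turned to -0.10 against all other kept barcodes and Ccnd1 to -0.013 against the vesicle stage. Krt8 turned to 0.61 at the 5% limit, 0.12 thinned and 0.19 without barcodes over 50000 UMIs, and Krt18 to 0.45, 0.41 and 0.26. Irx3 turned to -0.65 against the loop without barcodes over 50000 UMIs. Other causes were not tested. Of 155 gene results 126 lost no call and changed no sign under the alternatives that were run; among these Lhx1 against the proximal precursor gate and Pou3f3 against the loop gained a call. The labels number no replicates, so no pairing across populations comes from them, and the block is the library. Not run for want of barcodes were the distal tubule gate at the 5% limit, at 10000 UMIs and without barcodes over 50000 UMIs. With a single library left there was no residual degree of freedom and no count of calls.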

Other observations

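Genes of the mesenchymal state, low in members beside all other kept barcodes, were higher than in the loop of Henle gate in 5 of 10 cases (Vim, Fn1, Cdh2, Ncam1 and Zeb2), where 15.6% of all genes were higher. The filament protein Vim stood at 60.8 and 39.2 CPM in members and 29.2 and 6.03 in the loop (1.49 ± 0.36 on the log2 scale), and fibronectin (Fn1) at 56.8 and 48.2 against 22.1 and 16.5 CPM (1.47 ± 0.14). Against the proximal precursor gate both were lower in members, Vim by -1.502 ± 0.29 and Fn1 by -0.71 ± 0.12.

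Wnt7b, a ligand known from the ureteric epithelium and the distal nephron, stood at 32.4 and 35.5 CPM in members and 7.65 and 6.13 in all other kept barcodes (2.32 ± 0.14), and at 13.0 and 12.2 CPM in the loop of Henle gate (1.46 ± 0.28). The tight junction claudin Cldn19 stood at 18.5 and 25.5 CPM in members, 163 and 186 in the loop (-2.97 ± 0.12) and 0.830 and 0.631 in the proximal precursor gate (4.81 ± 0.24). FGF and ERK genes were higher in 7 and lower in 3 of 16 cases against the proximal precursor gate, where 10.1% and 13.6% of all genes were, and higher in 4 and lower in 6 against the loop, where 15.6% and 16.6% were. The 3 lower and the 4 higher are not far from those shares.

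Beside Xist and Ddx3y, other sex-linked genes differed between the libraries, and all were picked after their values were seen. In members of replicates 1 and 2 the Y-linked Eif2s3y stood at 0 and 60.9 CPM and Uty at 0 and 35.3. Library and sex therefore cannot be told apart in the differences between the replicates.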
